A study of Mus musculus with 18 samples.

Results

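The genes described here encode cohesin and its closest partners: Smc1a, Smc3 and Rad21 of the core ring, Stag1 and Stag2, the loader gene Nipbl, Pds5a and Pds5b, Sgol1 and Ctcf. The 10 genes were chosen by name from 22350 protein-coding genes on the autosomes and X. Their data are the peaks of RAD21 and NIPBL ChIP-seq (chromatin immunoprecipitation followed by sequencing) that lay within 5 kb of the gene start or in the gene body. RAD21 marks cohesin itself and NIPBL its loader, so the maps show where both proteins were found on the genes that encode them, and say nothing of how much RNA or protein these genes made.

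The cells were a mouse pro-B line transformed with v-Abl, held for 4 days in 3 uM STI-571, an inhibitor of the Abl kinase. All cells were deleted for JH, deficient for RAG2, and expressed dCas9 (a Cas9 that binds but does not cut) and the Emu-Bcl2 transgene. The block cells also expressed the Sg1-sgRNA, a guide RNA, and were compared with control cells that lacked it; RAD21 and NIPBL were each mapped in 2 block and 2 control libraries. RAD21 was also mapped in 3 libraries with Ig2b deleted on both alleles and in 3 Ig2b wild-type libraries, whose genotype was otherwise that of the control cells. All are described as 1 kind of transformed line, the labels do not say whether replicates were separate cultures or clones, and each p-value below measures only the spread between these libraries. The ends of the Ig2b deletion were not given in the sources used here, so the deletion was not checked in the peak lists.

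Cohesin is a ring of SMC1A, SMC3 and RAD21 that holds DNA together and extrudes it into loops; STAG1 or STAG2 binds the ring through RAD21. NIPBL loads the ring and drives extrusion, PDS5 proteins bind the ring and take part in both its release and its protection, and the product of Sgol1, shugoshin, protects cohesin at centromeres in mitosis. CTCF binds a defined DNA motif and stops extruding cohesin, which is why cohesin maps peak at CTCF motifs; in developing B cells this machinery shapes the immunoglobulin loci for V(D)J recombination.

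The peaks and genes were searched for the core of the CTCF motif, which is CCA, any 2 bases, AG, any 2 bases and GGC, on both strands. The genes, from 5 kb before the start to the gene end, held 63 such cores. A RAD21 peak covered 7 of them (11.1%) in all 10 RAD21 lists and 42 of them (66.7%) in none, against 7.04% and 80.5% of 140582 cores in the genome. A NIPBL peak covered 4 of the 63 cores (6.35%) in all 4 NIPBL lists, against 0.738% of cores in the genome. These 4 lay in the promoter regions of Rad21, Smc3 and Stag1, with 2 of them in the same Stag1 region. The sets are unlike, as the genome cores include those between genes while the 63 lie in genes and the 5 kb before them. The 7 cores under RAD21 in all 10 lists are printed below, because there RAD21 lay over a CTCF core in every condition; other regions of these genes had RAD21 in every list without such a core and are described further on. A further Smc3 core under RAD21 in 9 lists and a core upstream of Ctcf under RAD21 in 5 lists follow for contrast. Each sequence is 60 bases of mm9, 5′ to 3′ on the strand of the core, with the 12 bases of the core in capitals.
Smc3 promoter core (chr19:53674375-53674434, plus strand): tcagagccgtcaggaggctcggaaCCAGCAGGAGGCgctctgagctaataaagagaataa
Smc3 intronic core under RAD21 in all 10 lists (chr19:53712718-53712777, minus strand): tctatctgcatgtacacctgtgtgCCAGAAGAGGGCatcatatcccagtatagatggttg
Stag1 first promoter core (chr9:100543968-100544027, plus strand): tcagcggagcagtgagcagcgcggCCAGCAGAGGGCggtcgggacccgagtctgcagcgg
Stag1 second promoter core (chr9:100544026-100544085, plus strand): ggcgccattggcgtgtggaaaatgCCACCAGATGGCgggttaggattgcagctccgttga
Stag1 intronic core (chr9:100810940-100810999, minus strand): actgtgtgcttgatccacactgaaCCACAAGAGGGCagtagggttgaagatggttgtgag
Nipbl intronic core (chr15:8332368-8332427, plus strand): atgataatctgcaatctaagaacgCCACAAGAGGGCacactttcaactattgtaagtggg
Pds5b intronic core (chr5:151505442-151505501, minus strand): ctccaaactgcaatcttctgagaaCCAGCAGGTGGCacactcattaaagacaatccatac
Smc3 core under RAD21 in 9 lists (chr19:53711218-53711277, minus strand): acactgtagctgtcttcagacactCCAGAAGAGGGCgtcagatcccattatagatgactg
Ctcf upstream core under RAD21 in 5 lists (chr8:108157112-108157171, plus strand): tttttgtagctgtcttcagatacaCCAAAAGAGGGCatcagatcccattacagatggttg

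The last pair of sequences share their flanks as well as their core. Over the 24 bases on each side, 27 of the 63 cores were at least 60% identical to the Smc3 core under RAD21 in 9 lists, which itself is one of the 27. RAD21 peaks covered none of these 27 in all 10 lists, 9 of them in 1 to 9 lists and 18 in no list. That count of none depends on the threshold: the Smc3 intronic core under RAD21 in all 10 lists, printed above, was 54.2% identical. Among the 36 cores with other flanks, RAD21 covered 7 in all 10 lists, 5 in 1 to 9 lists and 24 in none. The flanks were compared after the sequences had been seen and no test was made. In mice, copies of a CTCF motif are known to have been spread by B2 short interspersed repeats; repeat elements were not annotated here.

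Across libraries, each RAD21 list had between 44729 and 82688 peaks over 11.6 to 34.4 Mb of the genome, with a median peak width of 211 to 305 bp. Each NIPBL list had between 63052 and 123391 peaks over 20.3 to 29.8 Mb, with a median width of 142 to 180 bp. The read depth behind each list is unknown. The RAD21 dCas9 libraries stood apart by number: both libraries numbered 2 covered more of the genome than those numbered 1 and their peaks carried another style of names. Several RAD21 results below are therefore also given by number. The Ig2b lists were called without a named control library, and their covered lengths are tested only among themselves. As a check of the cell type, 6 of 7 pro-B genes (such as Pax5 and Ebf1) had a RAD21 peak within 5 kb of the start in all 10 lists and 7 of 7 a NIPBL peak in all 4 lists, against 0 of 4 T cell genes for either protein. Of 4 myeloid genes, 1 had RAD21 in all lists and 3 had NIPBL; of 4 erythroid genes, 1 had RAD21 and 2 had NIPBL.

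Both proteins were found at the promoters of most of these genes. Within 5 kb of the gene start, a RAD21 peak was present in all 10 lists for 6 of the 10 genes (Smc3, Stag2, Pds5a, Pds5b, Sgol1 and Ctcf), against 23.4% of all genes. A NIPBL peak was present in all 4 lists for 9 of the 10, against 51.7% of all genes. All 14 lists had a peak for these same 6 genes, against 18.6% of all genes. Stag1 had no peak of either protein within 5 kb of its annotated start; both were instead found at an internal transcript start, 45650 bp into the annotated gene. Counting any annotated transcript start, RAD21 was present in all 10 lists for 7 genes (29.7% of all genes) and NIPBL in all 4 lists for 10 of 10 (54.7% of all genes). A stricter threshold on the authors' q-value (−log10 q of at least 3) lowered the counts at the annotated start. They were then 4 for RAD21 (14.05% of all genes) and 7 for NIPBL (32.86% of all genes).

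**Figure D1:**
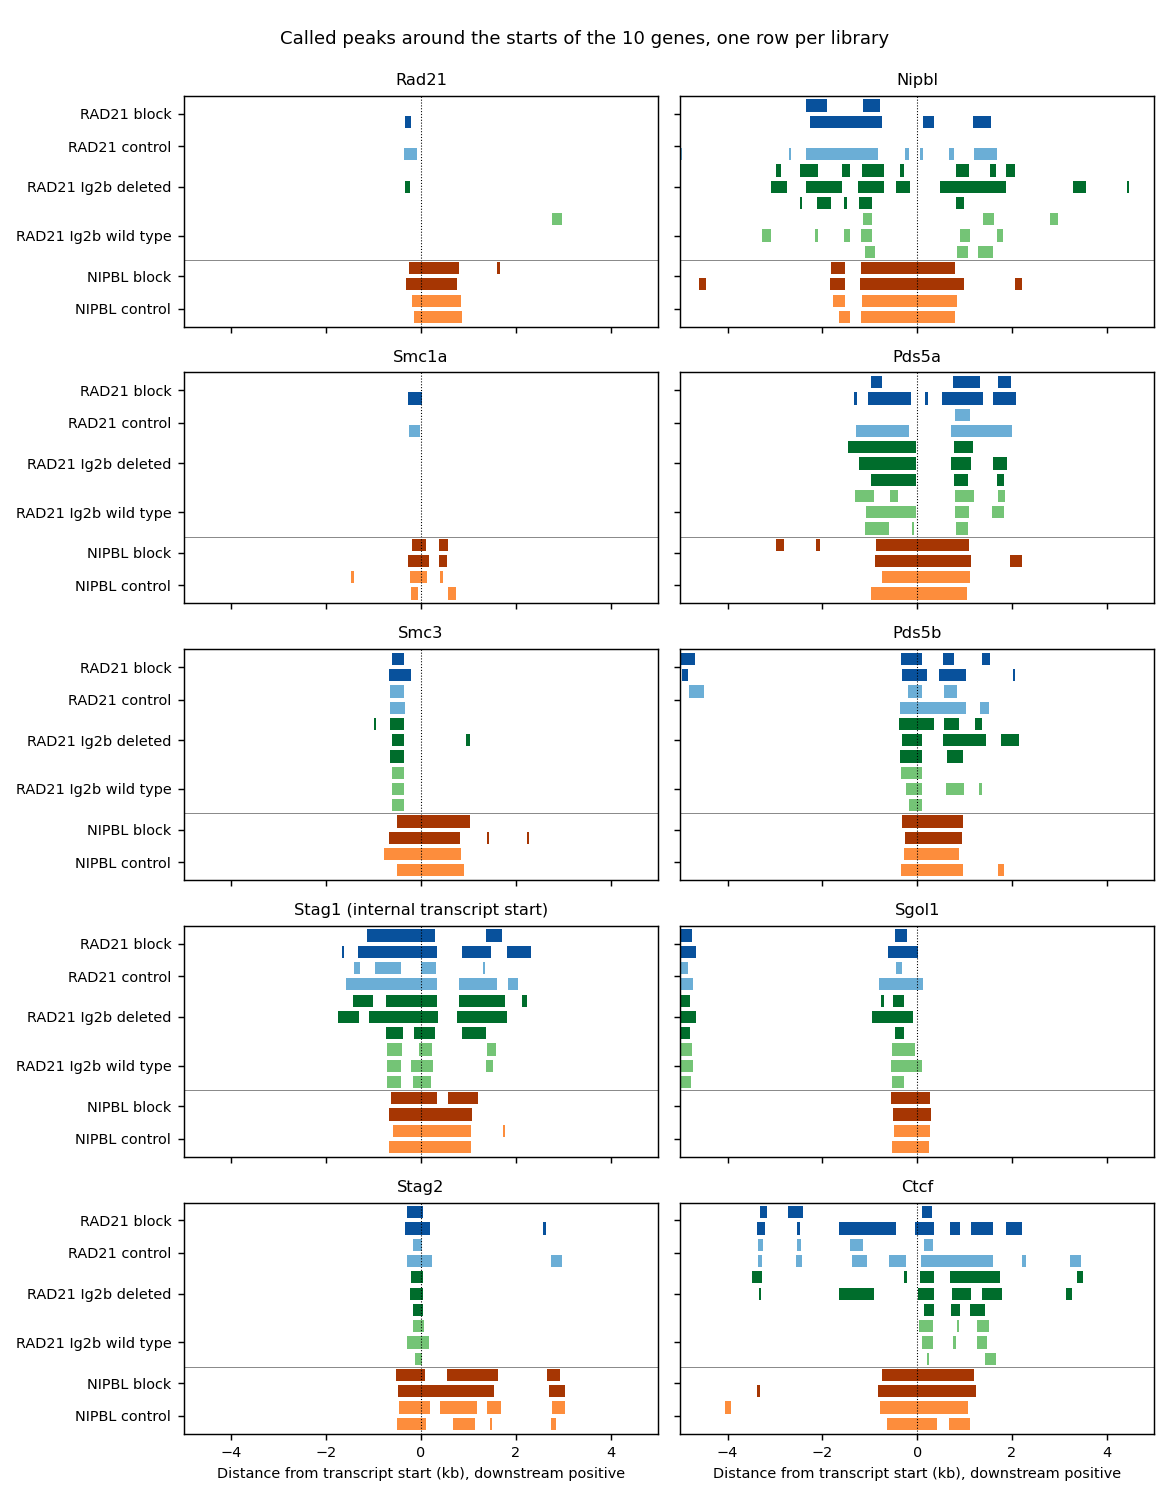
Peaks within 5 kb of the transcript start of each gene; the x axis is the distance from the start in kb, each row is 1 library (RAD21 above the line, NIPBL below it) and bars are called peaks. RAD21 peaks are narrow beside the Smc3 start, lie on both sides of the Nipbl and Pds5a starts in most lists, cover the Stag2 and Pds5b starts and the internal Stag1 start in all 10 lists, and are missing from most lists at Rad21 and Smc1a, whereas NIPBL peaks span the start in nearly every library.

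Rad21, the gene of the ring subunit that was itself mapped, carried wide NIPBL peaks at its promoter and few RAD21 peaks. RAD21 peaks covered 0 and 119 bp within 5 kb of the start in the block libraries numbered 1 and 2, and 0 and 256 bp in the control libraries; values below keep this order of numbers. In the Ig2b libraries the covered length was 0, 109 and 0 bp in deleted cells and 209, 0 and 0 bp in wild-type cells. The NIPBL peaks at the same place covered 1110 and 1062 bp in block cells and 1037 and 1017 bp in control cells. Every NIPBL library thus lay above every RAD21 library. A CTCF core at -127 bp from the start lay under NIPBL in all 4 lists and under RAD21 in 1 of 10. The 3 RAD21 peaks in the promoter region (chr15:51822445-51823657, exon) were weak ones, with folds over background of 3.20 to 3.52 that ranked at percentiles 6.29 to 19.0 of their own lists, whereas the NIPBL peaks had folds of 4.25 to 7.50, at percentiles 90.2 to 96.3. The folds are the authors' own values, and folds of different lists are not on 1 scale.

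Smc3, which encodes the partner of SMC1A in the ring, carried both proteins in all 14 lists, but with different shapes. RAD21 covered 266 and 466 bp in block cells, 297 and 320 bp in control cells, 357, 346 and 301 bp in Ig2b deleted cells, and 262, 250 and 252 bp in Ig2b wild-type cells. NIPBL covered 1524 and 1590 bp in block cells and 1628 and 1406 bp in control cells. The RAD21 peak was a narrow one, centred between -514 and -435 bp from the start, over the promoter core at -482 bp printed above, and it did not reach the start in any of 10 lists. The NIPBL peak was centred between 25 and 264 bp into the gene and covered the start in all 4 lists. RAD21 folds there were 6.505 to 15.5, at percentiles 76.9 to 96.0 of their lists, and NIPBL folds were 3.83 to 7.06, at percentiles 85.7 to 93.9.

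The 300 bases around the Smc3 start in the RefSeq promoter table (GRCm38.p6, chr19:53600146-53600445, plus strand) are shown because RAD21 peaks did not reach the start here while NIPBL peaks did; capitals mark a GC box and a YY1 motif, both on the opposite strand.
Smc3 promoter: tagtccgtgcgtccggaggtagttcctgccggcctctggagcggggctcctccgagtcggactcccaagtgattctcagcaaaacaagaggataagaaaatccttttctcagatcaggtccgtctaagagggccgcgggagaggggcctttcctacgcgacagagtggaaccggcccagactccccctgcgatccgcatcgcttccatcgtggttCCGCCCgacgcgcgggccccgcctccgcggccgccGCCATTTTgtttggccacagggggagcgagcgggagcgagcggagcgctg
The table matched 7 of the 10 genes; Rad21, Stag2 and Nipbl had no entry. The 7 promoters were rich in CpG, with an observed over expected ratio of 0.871 to 1.16, against a median of 0.384 over 32851 promoters. The GC box GGGCGG was present in 7 of 7 (35.7% of all promoters), the YY1 motif AANATGGC (N, any base) in 4 (6.05%), the NRF1 motif (GCGC, any base, TGCGC) in 3 (4.60%), CCAAT in 4 (37.4%), the ETS motif CCGGAAG in 1 (8.86%) and the CTCF core in 0 (2.43%), each searched on both strands. The window ran from 250 bases before the start to 50 bases after it. No match says only that these letters are not in the window, and the promoter cores of Smc3 and Stag1 printed above lie outside it.

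Smc1a, the third ring gene, had the shortest NIPBL lengths of the genes with peaks at the annotated start. RAD21 covered 0 and 293 bp in block cells, 0 and 215 bp in control cells, and 0 bp in all 6 Ig2b libraries. NIPBL covered 500 and 619 bp in block cells and 486 and 310 bp in control cells. No RAD21 library reached the lowest NIPBL library. The start of Ribc1 lies 133 bp from that of Smc1a, so these peaks cannot be assigned to 1 of these genes.

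Stag1 and Stag2 encode alternative subunits of the same position in the complex. Over the 10 RAD21 lists, RAD21 covered 676 to 2948 bp of the Stag1 promoter region (3561 bp) and 168 to 536 bp of that of Stag2 (2199 bp). This difference was not tested. The Stag1 lengths by library are for that region, at an internal start chosen because the peaks lie there. Those of Stag2 are for 5 kb on each side of the annotated start. At the internal Stag1 start (region chr9:100542109-100545669), RAD21 covered 1782 and 2327 bp in block cells, 1041 and 2714 bp in control cells, 2461, 2948 and 1293 bp in Ig2b deleted cells, and 779, 895 and 676 bp in Ig2b wild-type cells. NIPBL covered 1616 and 1756 bp in block cells and 1701 and 1736 bp in control cells there, which lay within the range of the RAD21 libraries. The NIPBL folds at this promoter, 7.40 to 16.3, ranked at percentiles 99.4 to 99.8 of their lists, and both promoter cores printed above lay under RAD21 and NIPBL in every list.

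At Stag2, RAD21 covered 329 and 589 bp in block cells, 201 and 744 bp in control cells, 252, 268 and 219 bp in Ig2b deleted cells, and 242, 460 and 168 bp in Ig2b wild-type cells. NIPBL covered 1971 and 2345 bp in block cells and 1993 and 1251 bp in control cells. No RAD21 library reached the lowest NIPBL library. The RAD21 peak sat on the start in all 10 lists, centred between -130 and -32 bp, and a median of 100% of its bases lay where all 4 NIPBL lists had a peak.

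Nipbl, the loader gene, carried wide NIPBL peaks over its start and, in most lists, RAD21 peaks on both sides of the start. RAD21 covered 803 and 2150 bp in block cells, 0 and 2355 bp in control cells, 1814, 3681 and 895 bp in Ig2b deleted cells, and 588, 939 and 751 bp in Ig2b wild-type cells. NIPBL covered 2278 and 2820 bp in block cells and 2260 and 2211 bp in control cells. The RAD21 libraries spread far more than the NIPBL libraries and overlapped them. RAD21 covered the start itself in 0 of 10 lists, NIPBL in 4 of 4, and a median of 36.2% of the RAD21 bases in the region (chr15:8392253-8396939) lay where all 4 NIPBL lists had a peak.

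The PDS5 genes carried strong RAD21 peaks. At Pds5a, RAD21 covered 1073 and 2364 bp in block cells, 307 and 2411 bp in control cells, 1830, 1954 and 1384 bp in Ig2b deleted cells, and 1107, 1614 and 790 bp in Ig2b wild-type cells, and NIPBL covered 2223 and 2274 bp in block cells and 1858 and 2026 bp in control cells. As at Nipbl, RAD21 covered the start in 0 of 10 lists and lay on both sides of it in most. At Pds5b, RAD21 covered 1133 and 1276 bp in block cells, 893 and 1576 bp in control cells, 1210, 1713 and 804 bp in Ig2b deleted cells, and 443, 784 and 273 bp in Ig2b wild-type cells. NIPBL covered 1280 and 1213 bp in block cells and 1169 and 1439 bp in control cells, within the RAD21 range. Here RAD21 covered the start in all 10 lists, with folds of 7.45 to 15.7 at percentiles 85.0 to 98.7 of the lists.

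At Sgol1, which encodes shugoshin, both proteins covered similar total lengths within 5 kb of the start, but not in the promoter region alone. RAD21 covered 508 and 978 bp in block cells, 310 and 1190 bp in control cells, 487, 1209 and 403 bp in Ig2b deleted cells, and 745, 941 and 484 bp in Ig2b wild-type cells, part of it in a RAD21 site 4.9 kb upstream. NIPBL covered 824 and 809 bp in block cells and 764 and 786 bp in control cells. The 4 NIPBL libraries lay within a narrow band inside the RAD21 range. The RAD21 dCas9 libraries numbered 1 lay below that band and those numbered 2 above it. In the promoter region alone (chr17:53828371-53829615), without the upstream site, RAD21 covered a median of 386 bp (lowest 135, highest 918). NIPBL covered a median of 797.5 bp there (lowest 764, highest 824).

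At Ctcf the RAD21 dCas9 libraries split by number. RAD21 covered 669 and 2859 bp in block cells, 652 and 2744 bp in control cells, 1757, 2056 and 718 bp in Ig2b deleted cells, and 601, 500 and 297 bp in Ig2b wild-type cells. NIPBL covered 1946 and 2114 bp in block cells and 1980 and 1525 bp in control cells. In both dCas9 groups the library numbered 2 lay above all NIPBL libraries and the library numbered 1 below them. The same split by number was present within 5 kb of the start at Pds5a and Sgol1, so it was not particular to Ctcf.

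**Figure D2:**
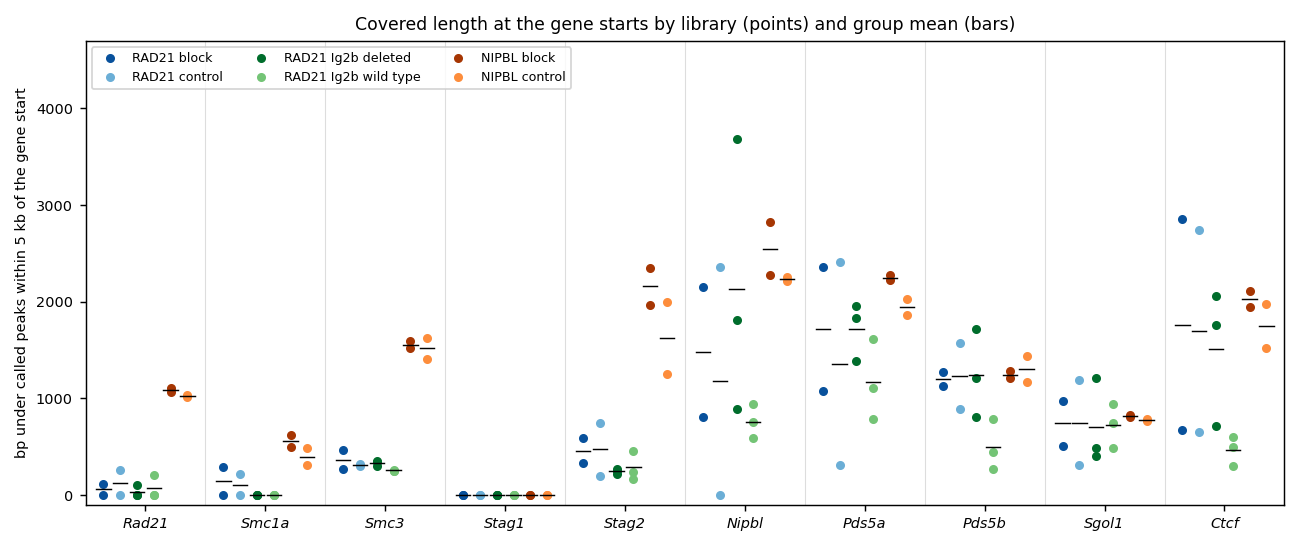
Length under called peaks within 5 kb of the annotated gene start (y axis, bp) for each gene; points are libraries and short bars group means. At Rad21, Smc1a, Smc3 and Stag2 all RAD21 dCas9 points lie below all NIPBL points, whereas at the other genes with peaks the groups overlap; Stag1 is at 0 because its peaks lie at an internal start.

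At the start base itself the lists of the proteins differed. At the annotated starts, RAD21 covered it in all 10 lists at 2 genes, Stag2 and Pds5b (1.68% of all genes), and in no list at 5, Rad21, Smc3, Stag1, Nipbl and Pds5a (68.8% of all genes). NIPBL covered it in all 4 lists at 8 of the 10 genes (33.6% of all genes), in 3 lists at Smc1a and in none at Stag1. The internal Stag1 start, chosen because the peaks lie there, was covered by RAD21 in all 10 lists and by NIPBL in all 4. Of the 4167 genes with a peak within 5 kb in all 14 lists, RAD21 covered the start base in all lists for 8.11% and in none for 32.7%, and NIPBL covered it in all lists for 66.1%. For the 6 cohesin genes among them the counts were 2, 2 and 6.

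Covered lengths of RAD21 and NIPBL were compared over the 8 dCas9 libraries, to ask where cohesin and its loader differ on these genes. Within 5 kb of the start, 4 of the 9 genes tested were lower for RAD21 and none was higher (limma on log2 of covered bp plus 200, Benjamini-Hochberg adjusted p under 0.05 over 13713 genes). Over all genes, 44% were called, 33.6% lower and 10.3% higher for RAD21, so the share of these genes called was near that of all genes. The lower genes were Rad21 (log2 difference -2.19 ± 0.32 SE, adjusted p = 0.00148), Smc3 (-1.70 ± 0.22, adjusted p = 0.000967), Stag2 (-1.70 ± 0.34, adjusted p = 0.00542) and Smc1a (-1.15 ± 0.37, adjusted p = 0.0363). The same 4 genes were those whose RAD21 and NIPBL libraries did not overlap, as was the case, with RAD21 lower, for 33.9% of genes tested. The median log2 difference was -1.15 over the 9 genes and -0.76 over all genes tested. Relative to that general shift, Rad21 was at -1.43, Smc3 at -0.95, Stag2 at -0.94 and Smc1a at -0.40. With quantile normalization between lists, which moves the median of all genes to -0.12 and the split of calls over all genes to 3384 higher and 3260 lower, Rad21 (-1.57), Smc3 (-1.20) and Stag2 (-1.25) were still called and Smc1a (-0.33, adjusted p = 0.258) was not.

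The 5 remaining genes were not called. Their log2 differences were -1.30 ± 0.74 for Nipbl (adjusted p = 0.180), -0.67 ± 0.50 for Pds5a (0.303), -0.37 ± 0.50 for Ctcf (0.562), -0.18 ± 0.35 for Sgol1 (0.687) and -0.07 ± 0.24 for Pds5b (0.813), each with its SE. These values depended on the RAD21 libraries used. Against the 4 NIPBL libraries, RAD21 libraries numbered 1 gave -1.27 for Ctcf, -1.51 for Pds5a, -2.53 for Nipbl and -0.73 for Sgol1, all called, whereas those numbered 2 gave 0.53, 0.18, -0.08 and 0.36 for the same genes, none called. Rad21 (-2.65 and -1.72), Smc3 (-1.85 and -1.56) and Stag2 (-2.15 and -1.25) were called lower with either set of RAD21 libraries, those numbered 1 first. Smc1a was called with those numbered 1 (-1.74) and not with those numbered 2 (-0.57, adjusted p = 0.0669). Leaving out any 1 of 6 libraries, all but the RAD21 libraries numbered 2, also ended the call of Smc1a, with adjusted p between 0.0603 and 0.101. Over all its alternatives, the adjusted p of Smc1a ran between 0.000825 and 0.310. Nipbl was called without RAD21 control 2 (-1.94, adjusted p = 0.0303; 0.00329 to 0.747 over its alternatives).

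**Figure D3:**
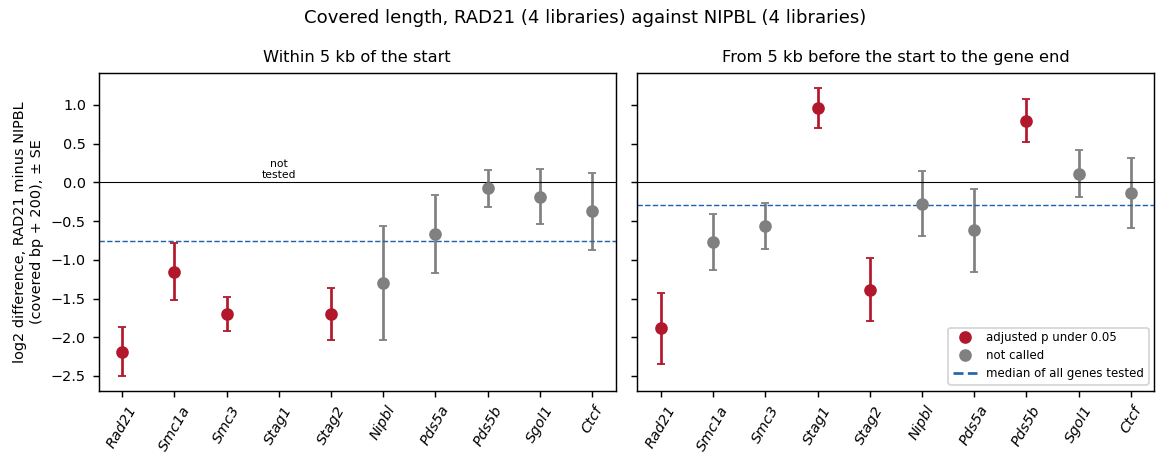
Log2 difference in covered length, RAD21 minus NIPBL, with its SE (y axis), for each gene within 5 kb of the start (left) and over the whole gene (right). Rad21, Smc1a, Smc3 and Stag2 lie below the median of all genes in both panels, of which only Rad21 and Stag2 were called in both. Stag1, Pds5b and Sgol1 lie above 0 over the whole gene, of which Sgol1 was not called.

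Over the whole gene, from 5 kb before the start to the gene end, RAD21 was higher at Stag1 and Pds5b, the genes with most RAD21 regions, and lower at Rad21 and Stag2. Of 16045 genes tested, 38.3% were called, 14% higher and 24.4% lower for RAD21, with a median log2 difference of -0.30; the median over the 10 cohesin genes was -0.42. RAD21 covered 3780 and 4749 bp of Stag1 in block cells and 3247 and 4584 bp in control cells, and NIPBL covered 1616 and 2171 bp in block cells and 1994 and 2176 bp in control cells. All 4 RAD21 dCas9 libraries lay above all NIPBL libraries at Stag1. Of the Ig2b lists, which were not compared with NIPBL by a test, those of deleted cells covered 6528, 6339 and 2488 bp of Stag1, and those of wild-type cells covered 2147, 1758 and 1534 bp, within or below the NIPBL range. At Pds5b, RAD21 covered 3580 and 2862 bp in block cells and 2407 and 4111 bp in control cells, and NIPBL covered 1437 and 2201 bp in block cells and 1725 and 1701 bp in control cells, again without overlap between the dCas9 libraries. The Ig2b lists covered 3117, 5261 and 2071 bp of Pds5b in deleted cells and 2327, 2346 and 2178 bp in wild-type cells, of which the lowest list of each group lay below NIPBL block 2. The log2 differences were 0.96 ± 0.26 SE for Stag1 (limma adjusted p = 0.0182) and 0.79 ± 0.28 for Pds5b, whose adjusted p of 0.049997 sits at the threshold. Rad21 was at -1.89 ± 0.46 (adjusted p = 0.0121) and Stag2 at -1.38 ± 0.41 (adjusted p = 0.0267).

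With RAD21 libraries numbered 1 and numbered 2, Stag1 was at 0.77 and 1.16 and Rad21 at -2.69 and -1.08, all called. Pds5b was called only with those numbered 2 (0.90; numbered 1, 0.69, adjusted p = 0.0605), and Stag2 only with those numbered 1 (-2.02; numbered 2, -0.75, adjusted p = 0.0791). Single libraries also ended calls: the call of Stag1 was lost without RAD21 block 2, NIPBL block 1 or NIPBL control 1 (adjusted p between 0.0509 and 0.0583), that of Stag2 without 5 of the 8 libraries (0.0517 to 0.0822) and that of Pds5b without 7 of the 8 (0.0604 to 0.131). Over all alternatives, adjusted p ran between 0.00370 and 0.326 for Stag1, between 0.00139 and 0.363 for Stag2 and between 0.0127 and 0.370 for Pds5b. Leaving out any 1 library left the call of Rad21 in place, and Smc1a was called without RAD21 control 2 (-1.09, adjusted p = 0.0171; 0.00835 to 0.543 over its alternatives). Smc3, Nipbl, Pds5a and Ctcf, not called in the main fit, were each called in 1 of 21 alternatives. The limma adjusted p was then 0.00852, 0.0165, 0.00749 and 0.0137, in that order.

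Outside the promoter regions, the RAD21 sites found in every list mostly had no NIPBL, which is also the most frequent kind of such region in the genome. Merging the peaks of all 14 lists gave 179 regions in the 10 genes, 138 of them intronic, and 119 were seen in 1 list only. RAD21 was present in all 10 lists in 16 regions and NIPBL in all 4 lists in 12, of which 11 held a transcript start. The 7 regions with both in all lists were all promoters, those of Smc3, Stag1, Stag2, Pds5a, Pds5b, Sgol1 and Ctcf. The 9 others with RAD21 in all 10 lists had NIPBL in no list, or in 1 list at a Smc3 site. Regions with RAD21 in all 10 lists thus numbered 8 with no NIPBL, 1 with NIPBL in 1 to 3 lists and 7 with NIPBL in all 4. Over the genome the same counts were 14686, 6328 and 4566. In the genome, 48.2% of regions with RAD21 in all 10 lists and no NIPBL held a CTCF core, against 31.2% of those with both in all lists and 3.43% of those with NIPBL in all 4 lists and no RAD21; in the cohesin genes the counts were 4 of 8, 3 of 7 and 0 of 1.

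The 9 RAD21 sites with NIPBL in at most 1 list lay in 6 genes. In Smc3 they lay 36.3 and 37.8 kb from the start, and each held a CTCF core: the first, partly exonic, had folds of 3.25 to 6.83 and the second, intronic, folds of 6.499 to 14.4. Stag1 had a pair of intronic sites at 312.8 and 319.5 kb (chr9:100810585-100811378 and chr9:100817254-100818139). The first of them, which holds the intronic Stag1 core printed above, covered 249 to 794 bp and the second 338 to 886 bp over the 10 RAD21 lists. Pds5b had intronic sites at 29.2 and 44.2 kb (chr5:151504924-151506088 and chr5:151519998-151520987). The first held the Pds5b core printed above and had a median covered length of 691 bp (lowest 505, highest 1096) and folds of 7.68 to 17.3, at percentiles 87.1 to 98.5 of the lists. Nipbl had 1 such site 62 kb into the gene (chr15:8332138-8332789), with the Nipbl core and a median of 404.5 bp (lowest 300, highest 514).

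The second Stag1 and Pds5b sites held no CTCF core, and neither did the remaining pair. One of these lay upstream of Sgol1, at -4.9 kb (chr17:53833319-53833829), with folds of 5.64 to 11.96, and the other lay 24.8 kb into Ctcf (chr8:108185113-108185438), with folds of 3.42 to 5.38 at percentiles 12.8 to 65.4. Rad21, Smc1a, Stag2 and Pds5a had no such site. Stag1 and Pds5b also held most of the regions seen once: 25 regions of Stag1 and 29 of Pds5b were seen in 1 RAD21 list and no other list.

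**Figure D4:**
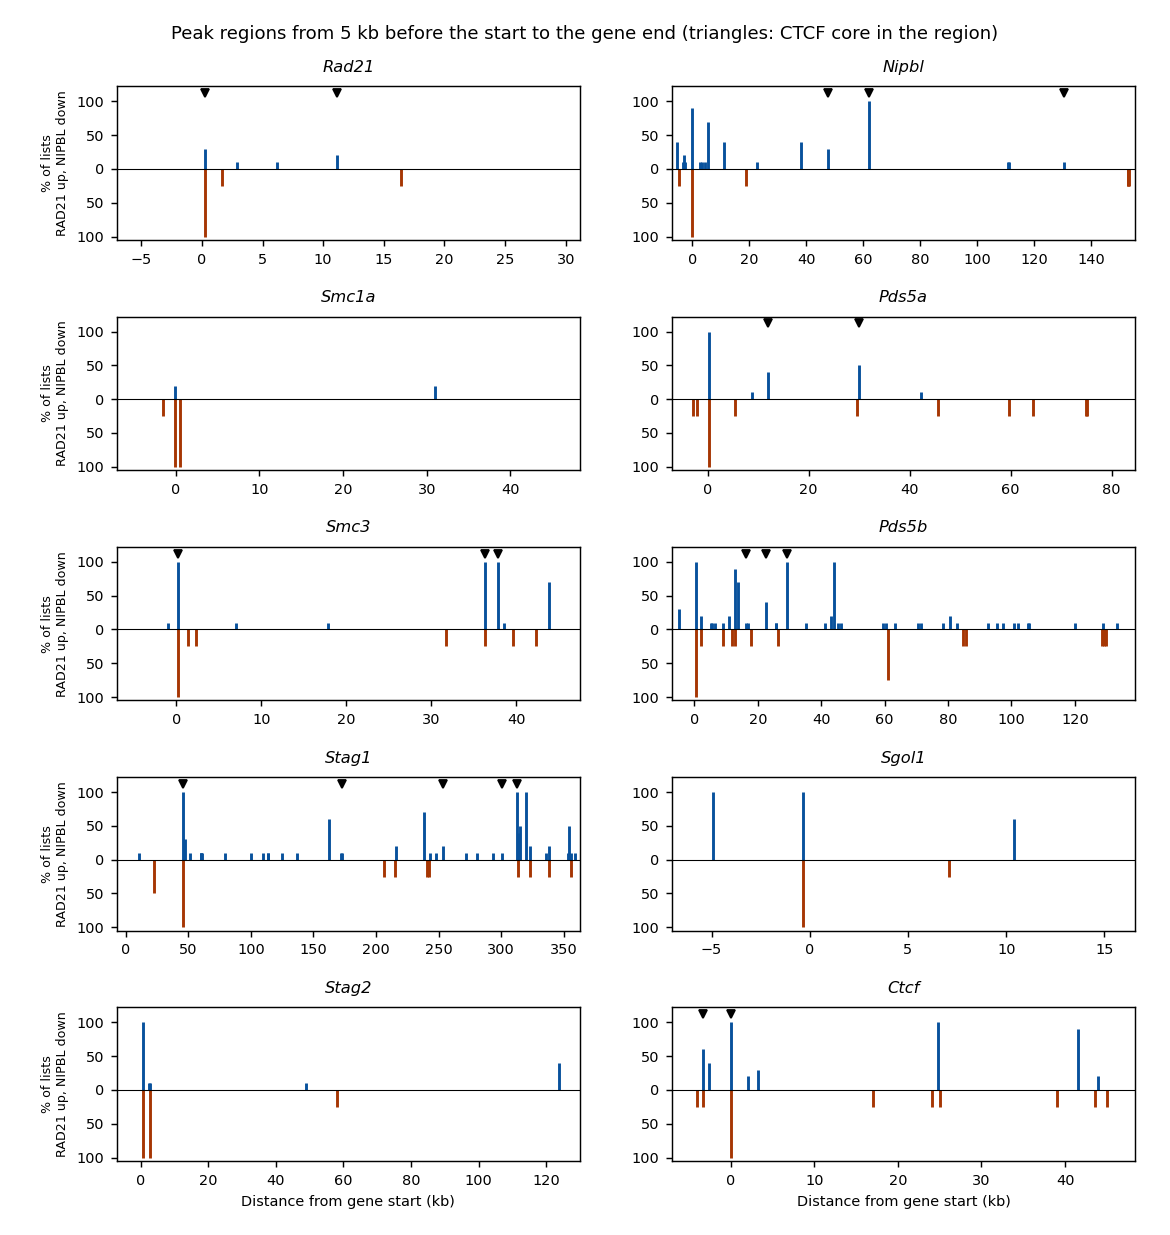
Share of lists with a peak in each merged region along the genes (x axis, kb from the gene start); bars up give the percentage of the 10 RAD21 lists, bars down that of the 4 NIPBL lists, and triangles mark regions with a CTCF core. RAD21 reaches 100% at the promoters of Smc3, Stag1, Stag2, Pds5a, Pds5b, Sgol1 and Ctcf, but not at those of Rad21, Smc1a and Nipbl. It also does so at sites inside Smc3, Stag1, Nipbl, Pds5b and Ctcf and upstream of Sgol1. NIPBL reaches 100% at promoters and beside the Smc1a and Stag2 starts.

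No difference in RAD21 between block and control cells was called at these genes. With limma, 0 of 11375 genes were called within 5 kb of the start (0%), and 3 had an unadjusted p under 0.05, none of them a cohesin gene. Over the 8 cohesin genes tested, the log2 difference of block against control ran between 0.01 and 1.10, with adjusted p of 1 for each. Block and control libraries overlapped at all 10 genes, whereas 6.63% of genes tested were higher and 1.8% lower in block cells without overlap. Within libraries numbered 1, the difference over the 10 genes had a median of 0.16 (lowest -0.09, highest 2.33, at Nipbl), and within libraries numbered 2 a median of -0.07 (lowest -0.52, highest 0.36). The difference between libraries numbered 2 and 1 was larger, with a median of 0.70 in block cells and 1.21 in control cells, and it was positive at 9 of 10 genes in both; Stag1 was at 0. The fit did not model the number, so this difference was part of the spread that the test used. With the number as a block, 0 genes were called as well.

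NIPBL at these genes was likewise not called in block against control cells. Of 13774 genes tested, 0 were called (0%) and 1431 had an unadjusted p under 0.05. The 9 cohesin genes tested had log2 differences of -0.05 to 0.40 and adjusted p of 0.5998 to 0.940; over all genes tested the median was 0.21. Block libraries were higher without overlap at 5 genes (Rad21, Smc1a, Nipbl, Pds5a and Sgol1), and so were 41.7% of all genes tested.

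In Ig2b deleted cells, RAD21 covered longer stretches of several of these genes than in wild-type cells, but no gene was called. Of 8699 genes tested with limma within 5 kb of the start, 0 were called (0%). An unadjusted p under 0.05 was found for 788, among them Ctcf and Pds5b. The log2 difference was 1.29 ± 0.40 SE at Ctcf (adjusted p = 0.491), 1.06 ± 0.37 at Pds5b (adjusted p = 0.518) and 0.23 ± 0.18 at Smc3 (adjusted p = 0.629). In this window these were the 3 genes where deleted libraries were higher without overlap, as were 14.2% of all genes tested. Nipbl was at 1.11 ± 0.47 (adjusted p = 0.531), and its libraries overlapped. Stag1 has no peak in this window. At its internal start and over the whole gene, its deleted libraries also lay above all wild-type libraries. That difference was not tested, and no share of all genes was taken for it. The median of all genes was 0.37, and the lists of deleted cells numbered 1 and 2 covered 18.2 and 25.1 Mb, above all 3 wild-type lists (11.6 to 15.2 Mb), while that numbered 3 covered 11.9 Mb. Pds5a, at 0.52 ± 0.29 (adjusted p = 0.557), was the 1 gene of the 10 called, longer in deleted cells, when only peaks at −log10 q of at least 3 were kept (1.78, adjusted p = 0.0136; 155 of 4714 genes were then called). With quantile normalization Smc3 was at -0.13 and Pds5a at -0.033. Over the alternatives, adjusted p ran between 0.0716 and 1 for Ctcf, between 0.127 and 1 for Pds5b, between 0.340 and 1 for Smc3 and between 0.0136 and 1 for Pds5a.

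Other genes of the cohesin pathway, a list of 32 drawn up with earlier results of these data known, were looked at in the same way. RAD21 was present within 5 kb of the start in all 10 lists at 10 of them (23.4% of all genes) and NIPBL in all 4 lists at 27 (51.7% of all genes). Of the 29 tested against each other, 12 were lower for RAD21 and none higher, with a median log2 difference of -0.98; over all genes tested 33.6% were lower and 10.3% higher, with a median of -0.76. Among the lower ones were Yy1, a factor that binds promoters and enhancers (-2.28, limma adjusted p = 0.00963), Dscc1, of the alternative clamp loader that aids cohesion (-1.96, adjusted p = 0.00103), and Wapal, the cohesin release factor (-1.95, adjusted p = 0.00499). Mau2, the partner of NIPBL in the loader, had RAD21 in 6 of 10 lists and NIPBL in 4 of 4 and was not called (-1.18, adjusted p = 0.0546). Rec8, the meiotic counterpart of Rad21, had no peak of either protein within 5 kb of its start in any list.

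The genes whose start windows looked most like the median of the 10 cohesin genes over the 14 libraries were C030006K11Rik, 8030462N17Rik, Lrrc24, Dopey1 and Ttyh3. Their Euclidean distances, on the scale of log2 of covered bp plus 200, were 0.56, 0.66, 0.71, 0.73 and 0.80, against a median of 5.94 over all genes. They are small by selection, as these genes were picked as the nearest. The 10 cohesin genes themselves lay further off, between 1.58 (Stag2) and 8.18 (Stag1), so the median is not a profile that they share.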

How the data were processed

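The data were 14 lists of broad peaks, 10 for RAD21 (antibody ab992) and 4 for NIPBL; 4 input libraries were not analysed here. Fixation was in 1% formaldehyde with 5 ug of antibody per precipitation, per the labels' protocols. Bowtie2 2.2.8 (alignment to mm9), SAMtools 1.8 and MACS2 (peak calling) are named in the submitters' processing notes; the version and settings of MACS2 are not given in the sources used here. Lists were made per library. The fold of a peak is the authors' ratio over background, and the deposited −log10 p and −log10 q served to rank and filter peaks. The deposited score column was not used.

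Genes came from GENCODE vM1 (NCBIM37, the same build). Covered bp is the union of a list's peaks in a window, with an overlap of at least 1 bp, and a region merges overlapping peaks of all lists. Each gene's covered length plus 200 bp was taken to log2 with no scaling between lists. It was tested with limma 3.58.1 (R 4.3.3) where the libraries compared averaged 100 bp or more, with block or control as a covariate for RAD21 against NIPBL; this left Stag1 out at the annotated start. The test was also run on simulated data with independent normal spread in each library. Those data lacked the deviation shared by same-numbered RAD21 libraries, so the run does not show how the test behaves under it. Python 3.11.15, numpy 2.4.6, pandas 2.3.3 and matplotlib 3.10.9 did the rest. Named genes were the 10 genes, up to 4 called genes of the pathway list in each direction, pathway genes without NIPBL, and the 5 closest in profile; Mau2 was named after its values were seen. A called pathway gene that this rule picks is counted but not reported here by name. The genes and lists were chosen with earlier results of these data known.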

Additional observations from a re-analysis of the deposited data

How the results depend on the processing

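No count of reads was given, so differences in read depth between lists could not be corrected, and only the presence and length of called peaks were compared. The RAD21 against NIPBL count of 6029 called genes at the start became 0 with control libraries only, 2739 with block libraries only and 9733 with RAD21 libraries numbered 1 (an alternative chosen after seeing the data); leaving out 1 library gave 4325 to 8001. Over the whole gene, 6151 became 0 with controls only and 951 with block libraries only; leaving out 1 library gave 4451 to 7488. In these fits on 1 condition there are 2 libraries a group. NIPBL block against control gave 71 calls without the filter on low coverage and 311 at −log10 q of at least 3, and RAD21 Ig2b deleted against wild type gave 6 and 155 under the same alternatives, 1 cohesin gene, Pds5a (1.78), among the 155. RAD21 block against control gave 0 under every alternative run. The cause of these changes was not tested.
Rad21 kept its call at the start in 22 of 23 alternatives, Smc3 and Stag2 in 21 and Smc1a in 9 of 22. With controls only, Rad21, Smc3 and Stag2 were not called; Smc3 was also lost counting any transcript start (-0.57) and Stag2 at −log10 q of at least 3 (-1.21). Within 1 kb, Nipbl (-2.23) and Pds5a (-1.26) were called.
Reversed values, none of them called, were at the start Pds5b 0.30 and Sgol1 0.40 with quantile normalization, and Pds5b 0.14, Sgol1 0.36, Pds5a 0.18 and Ctcf 0.53 with RAD21 libraries numbered 2. Over the whole gene they were Nipbl 0.43, Pds5a 0.32 and Ctcf 0.66 with those numbered 2, Sgol1 -0.29 with those numbered 1 and -0.034 at −log10 q of at least 3, and Ctcf 0.027 with controls only. In Ig2b deleted against wild type, Smc3 was at -0.13 and Pds5a at -0.033 with quantile normalization. Leaving out 1 library moved Pds5b between -0.21 and 0.072, Sgol1 between -0.47 and 0.11 and Ctcf between -0.75 and 0.0075 at the start, and Nipbl between -0.63 and 0.12, Sgol1 between -0.11 and 0.31 and Ctcf between -0.51 and 0.20 over the whole gene.
With the replicate number as a block, 6716 genes were called at the start and 6848 over the whole gene, and the other 3 comparisons stayed at 0. Same-numbered RAD21 block and control libraries deviated together (r = 0.71, across 13713 genes, which are not independent). Same-numbered libraries of other groups did not (-0.16 to 0.18). The main fits did not take the numbers as pairs in any comparison. For RAD21 block against control, the shared deviation therefore stayed in the spread of the main fit, and only the fit with the number as a block took it out.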
